A study of Mus musculus with 4 samples.

Results

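Beige adipocytes are thermogenic fat cells that appear within white fat. The members described here are the 1069 nuclei that the deposited annotation places in the cluster Beige, out of 32552 nuclei of mouse inguinal white adipose tissue (iWAT) in 12 clusters. The nuclei come from male C57BL/6J mice, 8 weeks old, with 3 mice in each of 7 groups, and chromatin was profiled by single-nucleus ATAC-seq (snATAC-seq), which tags DNA that the Tn5 transposase can reach. Mice of day0RT stayed at room temperature (22 °C). Mice of day1C, day3C and day7C were kept in the cold (6.5 °C in the sample labels, 6 °C in the study's methods) for 1, 3 or 7 days, and mice of day1CL, day3CL and day7CL were given the selective β3-adrenergic receptor agonist CL-316,243 (CL) at 1 mg/kg for the same times at room temperature. The comparison of CL with cold asks whether the drug and the physiological stimulus leave the chromatin of beige nuclei in the same state.

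Beige adipocytes burn fatty acids and glucose in mitochondria that carry UCP1, a protein of the inner membrane that lets protons flow back without making ATP, so that the energy is released as heat. Cold acts through sympathetic nerves, whose noradrenaline reaches all adrenergic receptors of the fat cell, and the signal runs through cAMP and protein kinase A to lipolysis and to transcription of thermogenic genes. PGC-1 coactivators, PRDM16, EBF2, PPARs and oestrogen-related receptors (ERRs) are known regulators of that programme.

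Each mouse gave between 5 and 107 beige nuclei. The day0RT mice gave 24, 12 and 22, day1C 32, 29 and 21, day3C 105, 30 and 18, day7C 98, 87 and 85, day1CL 6, 5 and 95, day3CL 43, 86 and 34, and day7CL 107, 46 and 84. Nuclei were summed per mouse where there were at least 10, which left 19 libraries and 1 library only, mouse 3, for day1CL. Every entry of the deposited matrix is 0 or 1, so a count tallies the nuclei in which a peak was seen open, and fewer nuclei with an open site cannot be told apart from less opening per nucleus. A gene's accessibility is the sum over the peaks in its body or the 2000 bases upstream, given as its counts in each 1000000 counts on genes (CPM), which is relative to the rest of the library. Libraries held 16099 to 556248 counts on genes (median 108371), so a level in the smallest library rests on few counts. The study states that its batches were run independently but not which mice each batch held, and p-values measure the spread between mice.

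Some barcodes occurred in more than 1 mouse. There were 4824 pairs of nuclei with the same barcode, all between mice of the same number and treatment on different days, in 18 pairs of mice. The paired nuclei shared a median of 5.39% of their entries. In 56 pairs more than 50% were shared, all 56 between day3C mouse 1 and day7C mouse 1, and 11 beige nuclei were among them (6 in day3C and 5 in day7C). Without these nuclei no count of genes called moved by more than 1.5 times. Lymphocytes were 90.8% and 84.1% of all nuclei in day1CL mouse 1 and mouse 2, which had no library and enter the tests only as beige shares. In 16 of the 19 mice with a library they were 58.2% to 78.5%, but 11.9% in day1CL mouse 3, 14.1% in day3CL mouse 2 and 36.8% in day3C mouse 1. Tests were repeated without these 3 lymphocyte-poor mice, which leaves no CL library of day 1 and 2 mice in each group of day 3. The part of this composition in the results was not tested otherwise.

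The sequences that carry the beige-selective signal are given first. They are windows of 200 bases around the centre of 5 of the 6 peaks with the largest ratio of beige accessibility over every other cluster, and the 250 bases upstream of Ucp1 (promoter from RefSeq), all on the plus strand of GRCm38 (mm10), 5′ to 3′. Capitals mark AAGGTCA on either strand, the core of the sequence that ERRs bind. Which factor binds at a match was not tested.
Ucp1 upstream peak, chr8:83285541-83285740, between genes: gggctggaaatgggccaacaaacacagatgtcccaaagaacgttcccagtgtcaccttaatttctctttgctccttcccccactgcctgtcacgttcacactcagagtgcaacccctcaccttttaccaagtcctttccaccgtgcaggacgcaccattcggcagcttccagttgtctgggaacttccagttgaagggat
Drd5 and Otop1 peak, chr5:38305237-38305436, between genes: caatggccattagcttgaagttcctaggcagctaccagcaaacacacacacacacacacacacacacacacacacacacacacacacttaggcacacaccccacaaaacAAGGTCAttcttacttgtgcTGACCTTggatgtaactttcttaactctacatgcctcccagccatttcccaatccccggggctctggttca
Mroh5 peak, chr15:73849812-73850011, between genes: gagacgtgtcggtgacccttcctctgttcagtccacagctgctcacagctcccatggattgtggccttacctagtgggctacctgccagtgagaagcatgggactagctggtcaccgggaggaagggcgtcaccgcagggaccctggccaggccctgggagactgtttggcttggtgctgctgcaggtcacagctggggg
Dio2 peak, chr12:90645520-90645719, between genes: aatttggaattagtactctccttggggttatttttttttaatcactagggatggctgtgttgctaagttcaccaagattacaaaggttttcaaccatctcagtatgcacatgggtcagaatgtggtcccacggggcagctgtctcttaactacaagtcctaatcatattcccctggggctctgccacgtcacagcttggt
Slc27a2 peak, chr2:126555453-126555652, intron of Slc27a2: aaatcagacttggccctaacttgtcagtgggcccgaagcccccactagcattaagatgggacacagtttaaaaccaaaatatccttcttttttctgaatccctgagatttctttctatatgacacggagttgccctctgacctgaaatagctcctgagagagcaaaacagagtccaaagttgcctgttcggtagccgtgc
Ucp1 promoter, chr8:83290098-83290347, upstream of Ucp1: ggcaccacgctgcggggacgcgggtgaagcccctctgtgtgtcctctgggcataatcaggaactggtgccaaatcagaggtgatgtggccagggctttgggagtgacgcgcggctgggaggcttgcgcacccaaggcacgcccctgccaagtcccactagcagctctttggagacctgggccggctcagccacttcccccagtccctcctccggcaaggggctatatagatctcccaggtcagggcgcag
Only the Drd5 and Otop1 window held the core, once on each strand. No window and not the Ucp1 promoter held the ERR sequence TCAAGGTCA, the MEF2 sequence CTAAAAATA, the cAMP response element TGACGTCA or the C/EBP sequence TTGCGCAA, searched on both strands, and the ERR sequence contains the core. No match says only that these letters are not in these windows.

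The label was checked against markers of beige adipocytes. Ucp1 (chr8:83290352-83298452), the uncoupling protein itself, had a level of 54.9 ± 36.2 CPM (SD, n = 19) in beige nuclei. It had 5.60 ± 3.15 CPM in white adipocyte nuclei (n = 21), and the next cluster, dendritic cells, had 9.95 CPM. White means set beside beige means of clusters are over all 21 mice. Ucp1 was higher in beige than in white nuclei of 17 of 19 mice, and it had no counts in the beige nuclei of day0RT mouse 2 and day3CL mouse 3, where 3 counts would be 186 CPM and 27.7 CPM. Pank1, which makes coenzyme A, had 316 ± 65.7 CPM in beige nuclei against 108 CPM in white ones and was higher in 19 of 19 mice. Cidea, a lipid droplet protein of brown fat, had 119 ± 56.7 CPM against 51.9 CPM and was higher in 18 of 19. Prdm16, a coregulator of brown fat identity, had 676 ± 114 CPM against 430 CPM and was higher in 19 of 19. All 4 markers were highest in beige of the 12 clusters. The authors grouped the nuclei by these same peaks, so differences between clusters are a description and carry no test.

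**Figure D1:**
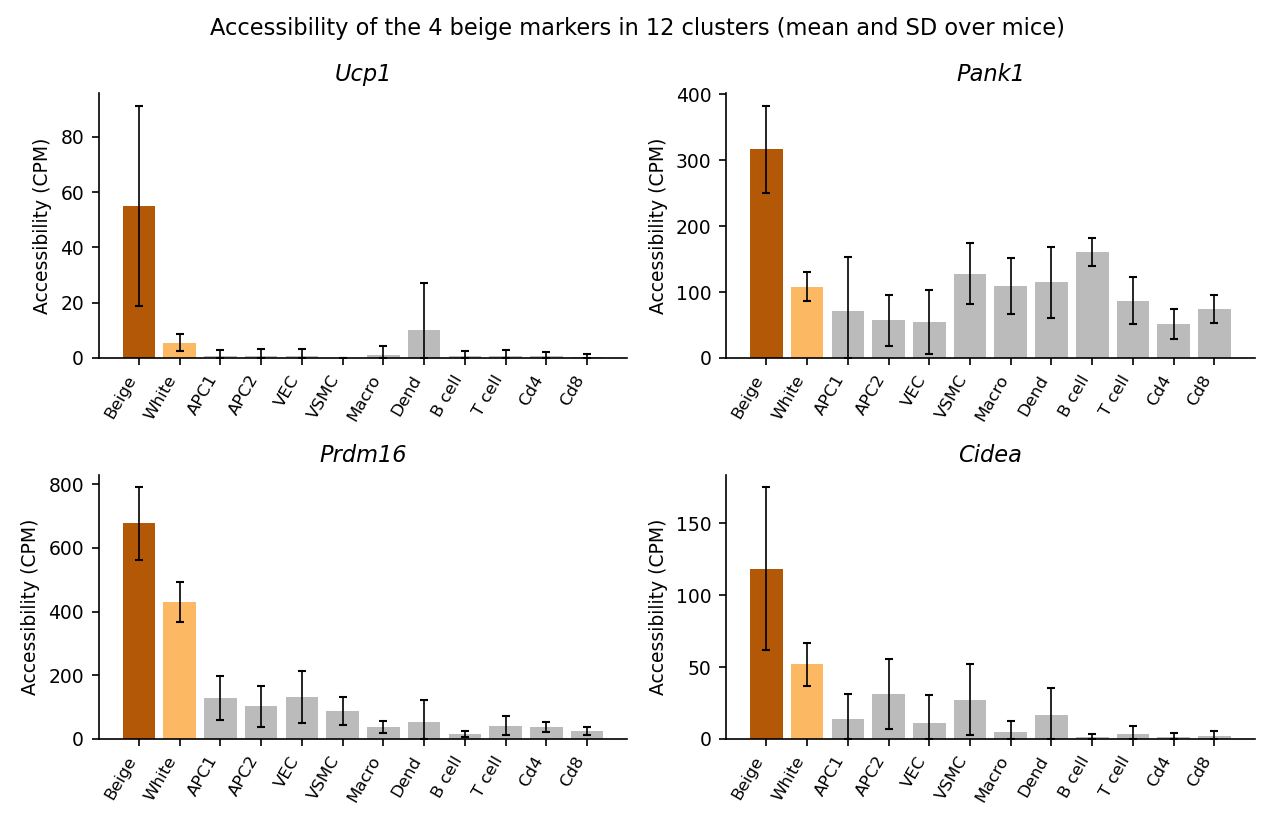
Accessibility (CPM) of Ucp1, Pank1, Prdm16 and Cidea in the 12 annotated clusters, with bars for the mean over mice and lines for the SD. Beige has the highest mean for each gene, 54.9 CPM for Ucp1 against 9.95 CPM in the next cluster, while Prdm16 is also high in white adipocytes (430 CPM).

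Markers of other cell types were low in beige nuclei. The 6 B cell markers summed to 113 CPM in beige, 121 CPM in white and 1436 CPM in B cell nuclei, led by Pax5. The 6 T cell markers summed to 44.5 CPM in beige, 44.2 CPM in white and 1022 CPM in CD4 T cell nuclei, led by Cd247. Macrophage markers, led by Mertk, summed to 168 CPM in beige, 214 CPM in white and 607 CPM in macrophage nuclei. The sums of markers for progenitors (109 CPM, led by Pdgfra), endothelium (121 CPM, led by Pecam1), dendritic cells (118 CPM, led by Zbtb46) and skeletal muscle (75.7 CPM, led by Ttn) in beige nuclei stood beside 154, 139, 137 and 78.3 CPM in white nuclei. Smooth muscle markers, led by Myh11, were the exception, at 169 CPM in beige, 159 CPM in white and 96.1 CPM in the cluster annotated VSMC, whose nuclei had 932 CPM of skeletal muscle markers. Ptprc, carried by all leukocytes, had 27.9 CPM in beige, 46.9 CPM in white and 312 CPM in B cell nuclei. No marker was at 0 over all beige libraries.

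Beyond the 4 markers, 6428 genes had at least 50 CPM in beige nuclei, and 896 of them had their highest mean there. Only 14 were at least 2-fold above every other cluster, and 61 were at least 2-fold above white adipocytes against 25 that were at least 2-fold below. The genes that set beige nuclei apart most after Ucp1 were Otop1, a proton channel, and Cib4, with log2 ratios of 2.13 and 1.93 over the next cluster. Otop1 (chr5:38275972-38304217) had 107 ± 30.2 CPM in beige nuclei against 23.9 CPM in white ones, higher in 19 of 19 mice. Slc27a2 (chr2:126552407-126588243), which imports and activates long and very long chain fatty acids, had 84.1 ± 30.4 CPM in beige, 15.4 CPM in white and 22.1 CPM in endothelial nuclei, the next cluster, and was higher than in white nuclei of 19 of 19 mice. Dio2 (chr12:90724552-90738438), which converts thyroxine to the active thyroid hormone, had 69.1 ± 33.7 CPM against 29.3 CPM in white. Receptors, channels and a G protein were among the other named genes. Adra1a, the α1A-adrenergic receptor, had 375 ± 62.9 CPM against 178 CPM in white, Gnao1, a G protein α subunit, had 265 ± 52.4 CPM against 116 CPM, the potassium channel Kcnk3 had 338 ± 70.4 CPM against 152 CPM, and the receptor Lgr6 had 142 ± 47.8 CPM against 63.9 CPM. Cerkl, S100b, Pdia5, Mmd2 and Ngef completed the 15 genes, with log2 ratios between 0.99 and 1.23 over the next cluster. Ngef shares 5 of its 8 peaks with Neu2, so that its level is uncertain.

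Against white adipocytes alone, the leading genes also included several that another cell type opened as well. Cldn1, a tight junction protein, had a log2 ratio of 2.04 over white, and Shtn1 had 1.97. Fhdc1 had 83.2 ± 46.5 CPM in beige against 20.0 CPM in white, but 82.9 CPM in the progenitor cluster APC2. Fabp3, the fatty acid binding protein of heart muscle, had 71.9 ± 34.1 CPM against 19.4 CPM in white, and 81.1 CPM in the VSMC cluster. Cpt1b, the muscle form of the enzyme that admits fatty acids to mitochondria, had 70.4 ± 24.5 CPM against 18.3 CPM, higher in 18 of 19 mice, and both of its peaks are shared with the predicted gene Gm44502. Divided by the length of their peaks, beige levels were 78.5 CPM per kilobase for Cpt1b, 65.8 for Ucp1, 50.5 for Otop1, 49.5 for Cidea, 33.0 for Pank1 and 24.5 for Prdm16.

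Gene lists were read for the share of members that were higher in beige than in white nuclei, where the median log2 ratio over all genes was -0.01. Of 20 thermogenic genes, 18 were higher, with a median of 0.89, and 13 had their highest mean of all clusters in beige, which is no independent evidence because the list holds the 4 markers and genes the study picked on these nuclei (among them Slc4a4, Ppargc1a, Ppargc1b, Gk, Ppara, Dio2, Kcnk3 and Otop1). Ppargc1b, a coactivator of mitochondrial genes, had 593 ± 121 CPM against 362 CPM in white. Ppara, the receptor that drives fatty acid oxidation, had 234 CPM against 120 CPM. Of 22 genes of fatty acid oxidation, 20 were higher, with a median of 0.50, and 17 were highest in beige. Acot11 and Pdk4 of this list, and Elovl6 of lipogenesis, were also picked by the study on these nuclei. Acot11, a thioesterase of brown fat, had 306 CPM against 125 CPM, and Hadha, which carries out the later steps of β-oxidation, had 262 CPM against 141 CPM, whereas Acsl1, the main acyl-CoA synthetase of fat, had 432 ± 132 CPM against 445 CPM. Of 24 genes of the TCA cycle and respiratory chain, 21 were higher, with a median of 0.38, and of 17 measured glycolysis genes 15 were higher, with a median of 0.31.

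Other lists leaned less to beige. Of 37 adrenergic and cAMP genes, 26 were higher, with a median of 0.27. The receptor that CL binds, Adrb3, had 147 ± 42.2 CPM in beige nuclei against 152 CPM in white ones, while Grk3, a kinase that desensitises receptors, had 85.1 CPM against 26.1 CPM and Adrb1 had 115 CPM against 80.3 CPM. Lipogenesis was split, with 6 of 12 higher and a median of 0.02, but Elovl6, which elongates fatty acids, had 527 CPM against 278 CPM and was higher in 19 of 19 mice. Among 32 transcription factors and cofactors 22 were higher, with a median of 0.06. Of the ERR genes, Esrrg had 425 CPM against 261 CPM, Esrrb 94.1 CPM against 62.8 CPM and Esrra 61.1 CPM against 51.8 CPM. Lipolysis and lipid droplet genes (8 of 17 higher, median -0.05), genes of triglyceride, glycerol and coenzyme A synthesis (9 of 15, median 0.13) and of creatine and calcium cycling (11 of 18, median 0.20) were near the value of all genes. Secreted factors were lower in beige, with 4 of 14 higher and a median of -0.28. Leptin (Lep) had 119 CPM against 215 CPM in white, resistin (Retn) 45.1 CPM against 99.9 CPM, and Bmp8b, a factor of thermogenic fat, 26.0 CPM against 5.36 CPM. Of the genes that the study singled out on these nuclei, as white-enriched or as closing early along its trajectory, 7 were measured here (Trabd2d was not analysed) and were lower, with a median of -0.94, which is no independent evidence either. Car3, a carbonic anhydrase abundant in white fat, had 174 ± 111 CPM in beige nuclei against 431 ± 66.1 CPM in white ones and was lower in every mouse.

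Peaks selective for beige nuclei lay farther from gene starts than all peaks open in them. Of 12604 peaks with at least 20 CPM in beige nuclei, 360 were at least 2-fold above every other cluster, near 308 genes, and white adipocytes were the next cluster for 295 of them. Among the 360, 5.83% lay within 2000 bases of a gene start, against 47.6% of the 12604, and the median distance was 30205 bases against 3123. Rnf152 had 6 such peaks and Ucp1 had 5, the most of any gene. The core AAGGTCA was present in the central 200 bases of 64 of the 360 peaks (17.8%). It was in those of 4.66% of the 12604, of 5.06% of all 189598 peaks and of 2 of the 10 peaks that were at least 2-fold under white. For 32851 RefSeq promoters, searched over 250 bases upstream of the start, the core was present in 4.08%. Among peaks more than 2000 bases from a start it was in 62 of 339 (18.3%) against 6.83% of 6603. The other sequences were rare. The full ERR sequence was in 0.833% of the 360 and 0.373% of the 12604, MEF2 in 0.278% and 0.405%, the cAMP response element in 0% and 1.18%, and C/EBP in 0% and 0.159%. The windows had been read before the core was added to the search.

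The peak upstream of Ucp1 (chr8:83285382-83285898), whose window is printed above, had 34.6 ± 23.0 CPM of all peak counts in beige and 2.57 CPM in white nuclei, higher in 19 of 19 mice, and lies 4712 bases before the gene. The Drd5 and Otop1 peak (chr5:38304983-38305690), just past the end of Otop1 and 14031 bases before Drd5, a dopamine receptor, had 35.7 ± 13.4 CPM against 4.33 CPM. The Dio2 peak (chr12:90645397-90645842) lies 92819 bases downstream of the Dio2 start and had 27.9 ± 17.4 CPM against 3.61 CPM. Within an intron of Slc27a2, the Slc27a2 peak (chr2:126555154-126555951) had 28.8 ± 15.8 CPM against 3.91 CPM. The Mroh5 peak (chr15:73849455-73850367), between genes, had 21.3 ± 23.2 CPM against 2.48 CPM, was higher in 16 of 19 mice and had no counts in at least 1. Its mean was 16.8 CPM without day0RT mouse 2 (102 CPM), under the minimum of 20 CPM. A peak in an exon of Prl7d1 (chr13:27706431-27706962) had 25.5 ± 15.0 CPM against 3.57 CPM. Around Ucp1 the beige signal was spread over several elements. Upstream, the peak centred at -11752 bases from the start had 36.9 ± 12.1 CPM against 11.9 CPM in white, and the one at -2467 bases had 22.9 CPM against 5.14 CPM. The promoter peak had 30.3 ± 24.4 CPM against 2.79 CPM, and a peak 9818 bases after the start, past the gene's end, had 18.5 CPM against 2.06 CPM. A peak 19677 bases after the start, near the edge of the window, had similar means in both, 21.9 CPM and 19.3 CPM.

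**Figure D2:**
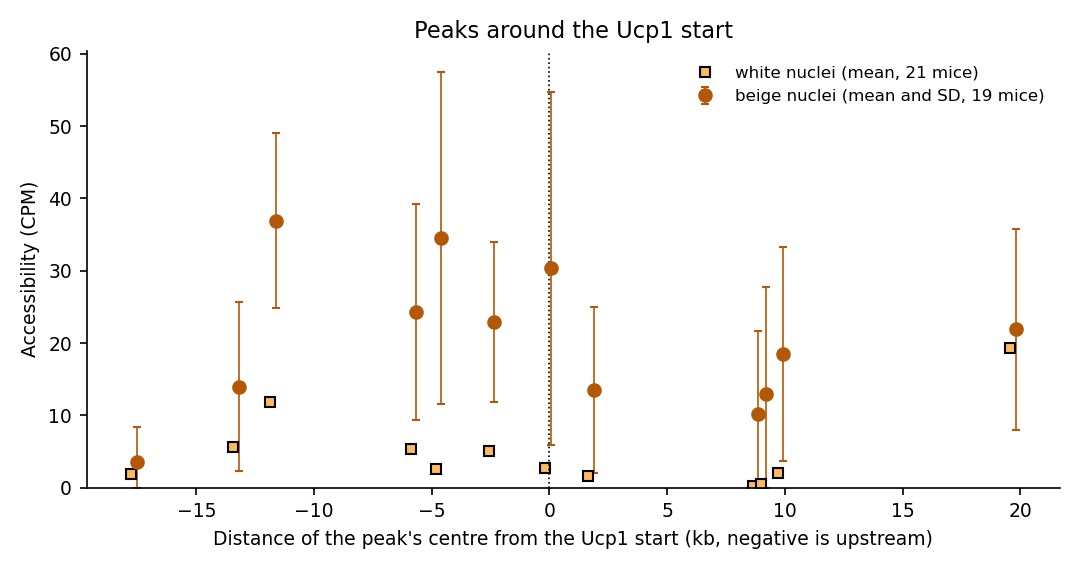
Accessibility (CPM of all peak counts, mean over mice) of peaks around Ucp1 in beige and white adipocyte nuclei, by distance in bases from the Ucp1 start. The beige values stand above the white ones from -11752 to 9818 bases, and are close to them at 19677 bases (21.9 CPM and 19.3 CPM).

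The part of the adipocyte nuclei (white plus beige) that was beige had its highest values at day 7 of cold. At day 0 the share was 12.2%, 7.69% and 7.72% in the 3 mice. In the cold it was 7.73%, 14.1% and 9.33% at day 1, 14.8%, 13.2% and 8.61% at day 3, and 32.5%, 29.7% and 26.1% at day 7. With CL it was 20.7%, 7.35% and 14.5% at day 1, 21%, 9.22% and 8.33% at day 3, and 22.1%, 14.5% and 23.5% at day 7. Of the 6 mice of day 7, 5 lay above every mouse of day 1, and the mean was 24.7% at day 7 against 12.3% at day 1 (difference 12.4 percentage points, two-sided exact permutation test with the day permuted within treatments, p = 0.015, smallest possible 0.005). Adjusted over the 4 permutation tests of this and the next paragraph, that p was 0.06 and did not pass 0.05. As a share of all nuclei, the same difference was 2.76 points (exact permutation p = 0.105). Shares of adipocyte nuclei did not differ detectably between 18 treated mice (16.5%) and 3 mice of day 0 (9.22%, difference 7.29 points, exact permutation p = 0.126, smallest possible 0.0015), or between 9 CL mice (15.7%) and 9 cold mice (17.3%, difference -1.63 points, exact permutation p = 0.548). The last difference was 0.42 points, in the other direction, as a share of all nuclei, and 0.26 points without day7C mouse 1. The differences of day 7 from day 1, of treated mice from day 0 and of CL from cold were 12.9, 8.02 and -0.86 points without the 3 lymphocyte-poor mice (unadjusted exact permutation p = 0.025, 0.118 and 0.797).

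**Figure D3:**
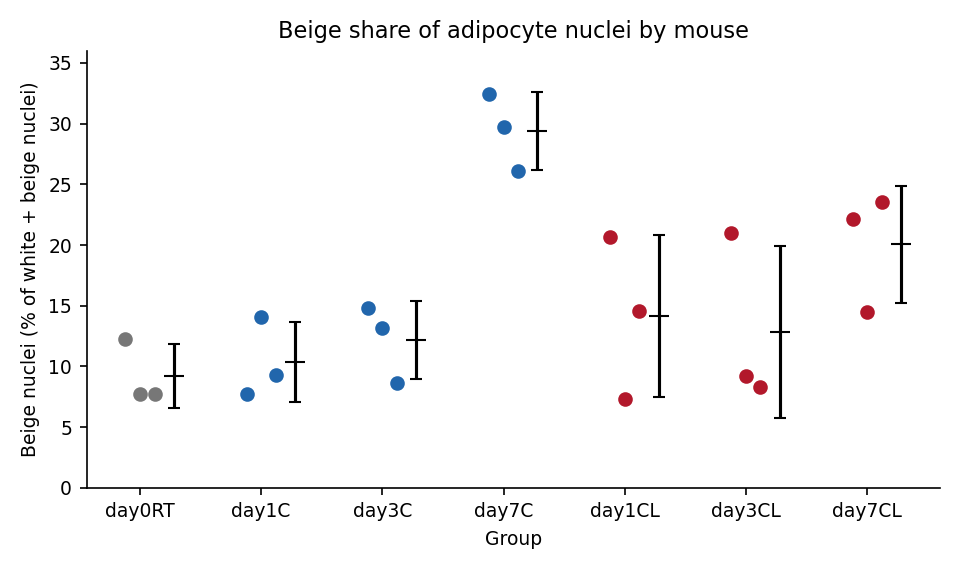
Beige nuclei as a percentage of white plus beige adipocyte nuclei, with 1 point for each mouse and the mean ± SD of each group. The 3 cold mice of day 7 sit between 26.1% and 32.5%, above all other mice, and the 3 CL mice of day 7 between 14.5% and 23.5%.

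An entry in a Ucp1 peak was found in a minority of beige nuclei. It was present in 172 of 1069 (16.1%, Wilson 95% interval 14.0% to 18.4%, counting error only), in 1.94% of white adipocyte nuclei and in 0.0501% of B cell nuclei, which serve as background, at median depths of 3087, 2561 and 974 entries per nucleus. With every nucleus thinned to 1000 entries it was present in 38 of 930 (4.09%, 2.99% to 5.56%), in 0.494% of white and in 0.0516% of B cell nuclei. The share among beige nuclei after thinning was 4.00%, 5.26% and 5.56% in day1C, 5.94%, 12% and 0% in day3C and 7.23%, 2.67% and 5.13% in day7C. At day 0 it was 0% in mouse 1 (0 of 19 nuclei) and 14.3% in mouse 3 (3 of 21), the highest of the mice with at least 10 thinned nuclei. It was 2.90% in day1CL mouse 3, 3.45%, 2.53% and 0% in day3CL and 1.89%, 2.27% and 2.74% in day7CL. Between the arms, 9 cold mice averaged 5.31% and 7 CL mice 2.25% (difference -3.06 points, two-sided exact permutation within days, p = 0.0356, smallest possible 0.00125, adjusted over the 4 permutation tests 0.0713), and the groups overlapped. The unthinned difference was -9.52 points (exact permutation p = 0.0238). Each percentage rests on 0 to 6 nuclei with an entry, and the unadjusted p was 0.05 or more when 1 of 10 mice was left out (day1C mouse 3, day1CL mouse 3, day3C mouse 1 or 2, day3CL mouse 2 or 3, day7C mouse 1, or any day7CL mouse), up to 0.0863 without day3CL mouse 3. Over days 3 and 7 without the 3 lymphocyte-poor mice, 5 cold mice averaged 5.40% and 5 CL mice 2.07% (exact permutation p = 0.217, smallest possible 0.0167).

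The comparison of CL with cold within beige nuclei, over the mean of the 3 days, gave the clearest differences between groups. Of 7353 genes tested, 122 (1.66%) were higher and 81 (1.1%) lower in CL at an adjusted p under 0.05. That split was 109 and 39 with no filter on low counts and 9 and 1 with promoter peaks only. Car3 (chr3:14863512-14872523) led the genes higher with CL. Beige nuclei had 39.8 to 137 CPM of Car3 in the 9 cold mice (median 71.1), 175 to 360 CPM in the 7 CL mice (median 235), and 356, 248 and 335 CPM at day 0, so that no CL mouse overlapped a cold mouse. The log2 difference was 1.70 ± 0.16 (SE, adjusted p = 1.61e-21). Cyp2e1 (chr7:140763739-140774987), a cytochrome P450 that is more open in white nuclei, had 31.7 to 63.8 CPM in cold (median 54.4) and 81.2 to 203 CPM in CL (median 115), again without overlap (log2 1.15 ± 0.22, adjusted p = 5.05e-05). Fkbp5, a cochaperone of the glucocorticoid receptor, had 136 to 386 CPM in cold (median 211) and 331 to 633 CPM in CL (median 433; log2 0.96 ± 0.12, adjusted p = 6.72e-11). The transcription factor Zbtb16 was also higher with CL than in cold (log2 0.60, adjusted p = 1.51e-06), while its CL minus day 0 difference was -0.08 (adjusted p = 0.916). Its CL minus cold difference without the 3 lymphocyte-poor mice was 0.43 and did not pass (adjusted p = 0.0647). The matrix protein Tnxb, Apol6, the collagen lysyl hydroxylase Plod2, Trp63, the glucose transporter Slc2a3, the kinase Stk3 and the actin regulator Arpc1b complete the 10 largest increases, with log2 differences from 0.96 to 1.37. Without day1CL mouse 3 those of Tnxb, Trp63 and Plod2 were 0.75, 0.59 and 0.46 in place of 1.37, 1.03 and 1.14. Apol6 shares 1 of its 3 peaks with Mb.

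Genes lower with CL included Ucp1 and Pank1 of the 4 beige markers, while Cidea and Prdm16 (log2 -0.15, adjusted p = 0.475) did not pass. Ucp1 had 31.9 to 153 CPM in beige nuclei of cold mice (median 63.0) and 0 to 64.7 CPM in those of CL mice (median 31.2), with 42.7, 0 and 88.1 CPM at day 0. The arms overlapped, and the log2 difference was -1.24 ± 0.27 (adjusted p = 0.00105) on a mean of 9.84 counts per library. Dio2 had 69.9 to 139 CPM in cold (median 85.1) and 42.2 to 71.8 CPM in CL (median 49.9; log2 -0.92 ± 0.22, adjusted p = 0.00279), and only the highest CL mouse reached the lowest cold mouse. Fabp3 had 56.5 to 159 CPM in cold and 22.5 to 71.8 CPM in CL (log2 -1.04 ± 0.23, adjusted p = 0.00129), and it shares 1 of 3 peaks with each of Gm10570 and Zcchc17. The zinc finger gene Zfp652 had 396 to 631 CPM in cold and 187 to 381 CPM in CL without overlap (log2 -0.79 ± 0.11, adjusted p = 1.81e-09). Slc27a2 (log2 -0.82, adjusted p = 0.03), Cib4 (log2 -0.81, adjusted p = 0.00969), Fhdc1 (log2 -0.95), St3gal5 and Med14 were lower too. Abi3 had the largest decrease (log2 -1.25 ± 0.18), but it shares 5 of 7 peaks with Gngt2, which is also on the list (log2 -1.13), and 2 of 7 with Zfp652, so that the 3 genes are not fully separate observations. Every CL library lay above every cold library for 11 genes (0.15% of those tested) and below for 6 (0.0816%), among them Car3, Cyp2e1, Slc2a3 and Zfp652.

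**Figure D4:**
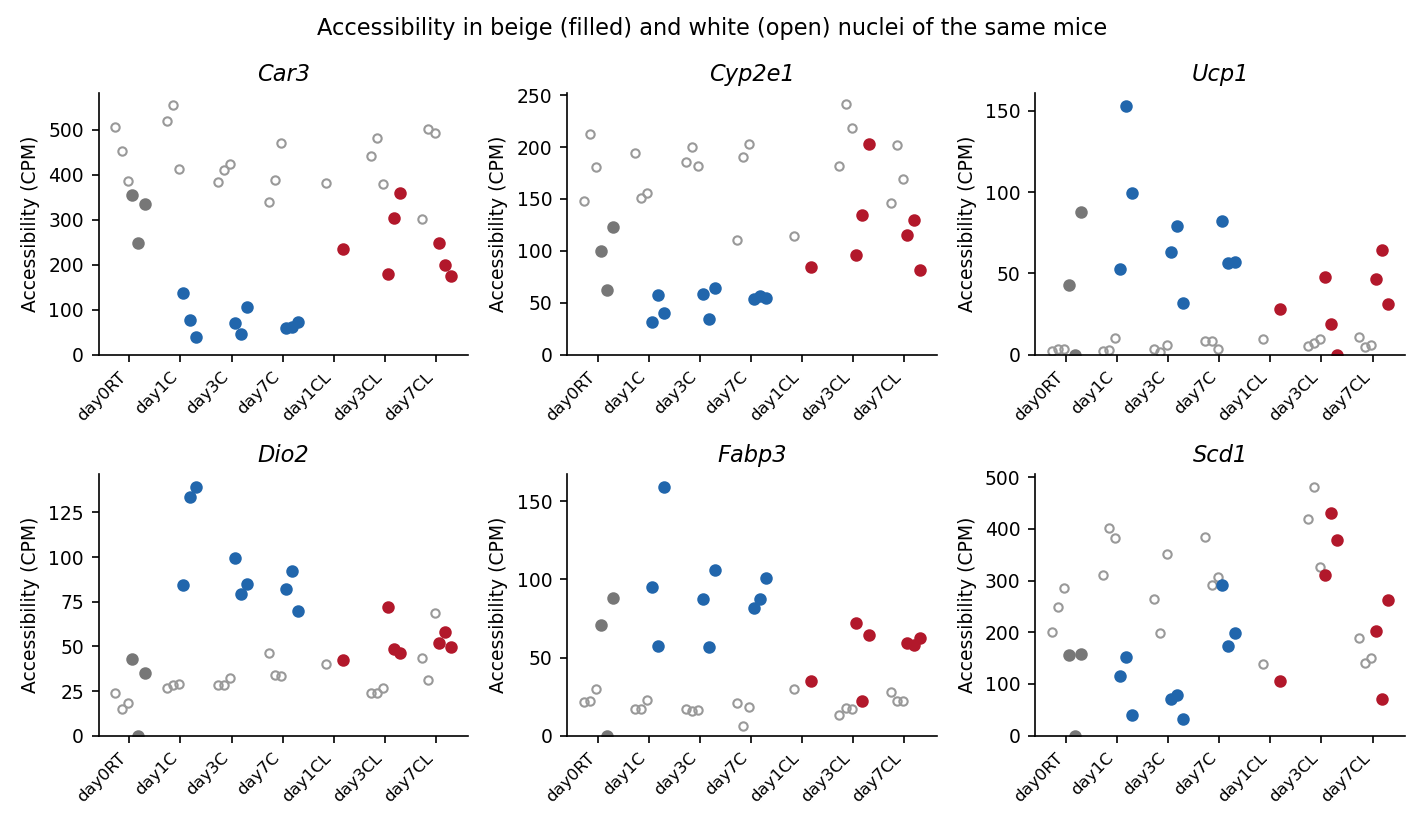
Accessibility (CPM) of Car3, Cyp2e1, Ucp1, Dio2, Fabp3 and Scd1 in each mouse by group, with filled points for beige and open points for white adipocyte nuclei. In beige nuclei Car3 lies at 39.8 to 137 CPM in every cold mouse and at 175 to 360 CPM in every CL mouse, while the white values of the same mice overlap.

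Of the 12 lists, the thermogenic one had the largest share of tested members lower with CL and fatty acid oxidation the next, and 8 others held at least 1 lower member. The lists were chosen with earlier results of these data known, so these shares are no independent evidence. The thermogenic list also holds the 4 markers and genes the study picked on these nuclei. The median log2 difference over all genes tested was -0.01. Of 17 thermogenic genes tested (of 20 listed), 5 were lower and 0 higher, against 1.1% and 1.66% of all genes, with a median of -0.42. They were Ucp1, Dio2, Ppargc1b (log2 -0.65, adjusted p = 1.35e-07), Pank1 (log2 -0.43, adjusted p = 0.026) and the bicarbonate transporter Slc4a4 (log2 -0.33). Ppargc1b had 567 to 745 CPM in cold and 330 to 574 CPM in CL, with 1 CL mouse inside the cold range. Cidea had a log2 difference of -0.55 that did not pass (adjusted p = 0.072). Of 20 genes of fatty acid oxidation, 4 were lower and 0 higher, with a median of -0.37, namely Acot11 (log2 -0.60), Acsl1 (-0.46), the long chain acyl-CoA dehydrogenase Acadl (-0.59) and Hadha (-0.45). In other lists the lower members were Sdha of the TCA cycle (1 of 17), Gpi1 of glycolysis (1 of 17), Cd36 and Fabp3 of lipid uptake and droplets (2 of 15), the mitochondrial glycerol phosphate dehydrogenase Gpd2 beside Pank1 (2 of 13 genes of triglyceride and coenzyme A synthesis), and Adcy6 and Prkar2b of cAMP signalling (2 of 32, with Crtc3 higher). Lipogenesis was divided, with Scd1 higher (log2 0.77) and Acacb and Elovl6 lower, of 12 tested. The white-enriched list was divided too, with 1 gene lower and 1, Car3, higher of 6 tested. Creatine and calcium cycling (11 tested) and secreted factors (10 tested) had none, and of 31 transcription factors and cofactors Zbtb16 was higher and Ppargc1b lower. No member of any of the 12 lists was called lower without the 3 lymphocyte-poor mice, and neither Zbtb16 nor Crtc3 (log2 0.68, adjusted p = 0.0876) was called higher.

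**Figure D5:**
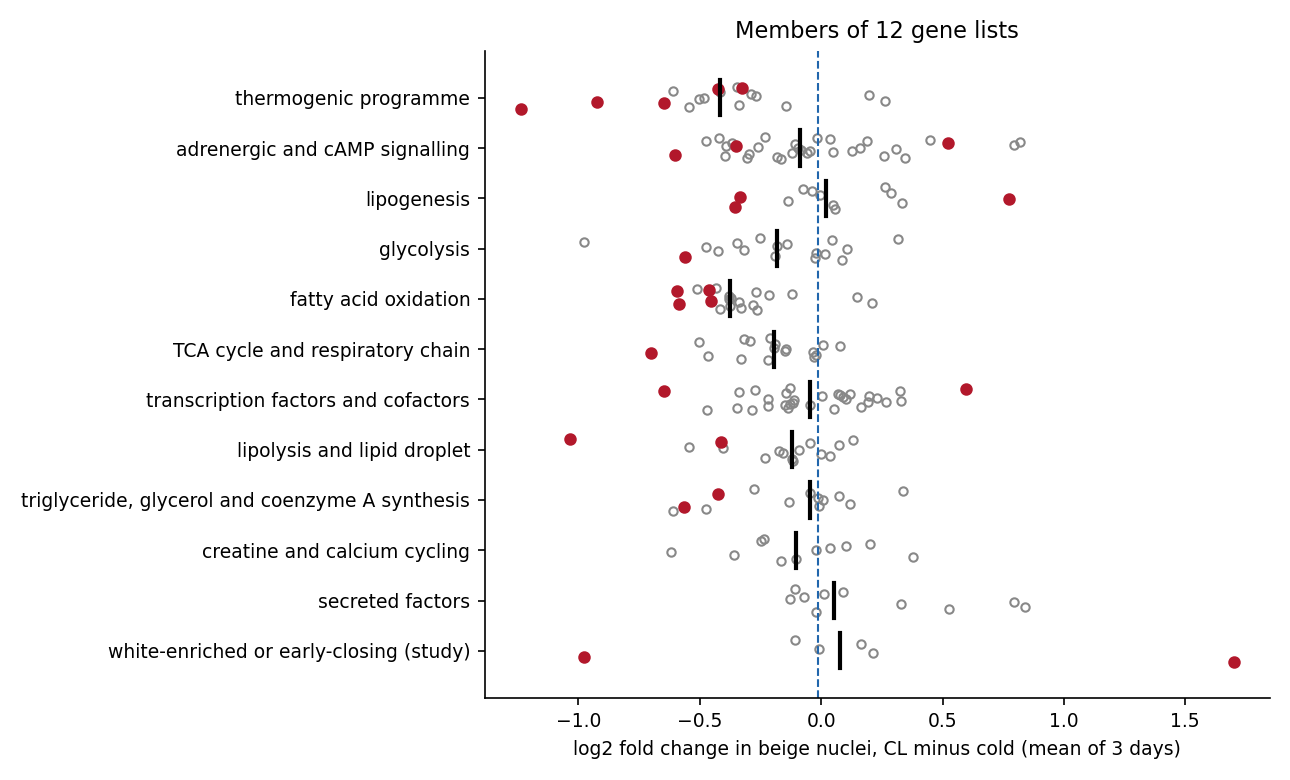
Log2 difference of CL minus cold (mean of 3 days) in beige nuclei for each tested gene of 12 lists, with filled red points for an adjusted p under 0.05, a black bar at each list's median and a dashed line at the median of all tested genes (-0.01). The thermogenic and fatty acid oxidation medians lie at -0.42 and -0.37.

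Of the 22 named genes of this comparison, 15 kept the call in each leave-one-out fit that tested them, though Ucp1, Apol6 and Stk3 were not tested without day1CL mouse 3. Without the 3 lymphocyte-poor mice 32 genes were called of 4306 tested (23 higher and 9 lower), among them Car3, Cyp2e1, Slc2a3, Fkbp5, Abi3, Fhdc1 and Zfp652. No thermogenic gene (13 tested, median -0.25) and no gene of fatty acid oxidation (16 tested, median -0.36) was then called, Ucp1 was not tested, and the log2 differences were -0.56 for Dio2, -0.45 for Fabp3, -0.28 for Ppargc1b, -0.27 for Pank1, 0.35 for Tnxb and 0.33 for Trp63. Plod2 (0.34), Slc27a2 (-0.52), Cib4 (-0.38) and Med14 (-0.45) did not pass there either. With single mice left out, Plod2 lost the call without day1CL mouse 3, Gngt2 without day3C mouse 1, St3gal5 without day1C mouse 1 or day3C mouse 1, and Cib4 without day1CL mouse 3, day1C mouse 2, day3C mouse 1 or day7CL mouse 1. Slc27a2 and Pank1 lost it without day1CL mouse 3, day1C mouse 1, day3CL mouse 2, day3C mouse 1 or day7CL mouse 1, Slc27a2 also without day3CL mouse 3 and Pank1 without day1C mouse 3, and Med14 lost it without any 1 of 11 mice. Without day1CL mouse 3 the log2 differences of Slc27a2 and Med14 were -0.46 and -0.34. Sums of macrophage markers in beige nuclei had medians of 169 CPM in cold and 180 CPM in CL, smooth muscle markers 137 and 194 CPM, endothelial markers 146 and 112 CPM, and the depths of a beige nucleus, as the median over the mice of each mouse's median, were 2352.5 entries in cold and 3233 in CL. Their part in the differences was not tested beyond thinning every nucleus to 1000 entries, which left 1306 genes tested and 12 called. Of the named genes still tested, Car3 (log2 1.55) and Zfp652 (-0.86) passed, and Fkbp5 (0.82, adjusted p = 0.0504), Trp63 (0.97, adjusted p = 0.194), Abi3 (-1.20, adjusted p = 0.194) and Pank1 (-0.60, adjusted p = 0.194) did not.

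Of 7353 genes, 64 (0.87%) were higher and 29 (0.394%) lower in day3CL than in day3C, the higher ones including Scd1 and other lipogenic genes. Scd1 (chr19:44394455-44407879), which makes monounsaturated fatty acids, had 71.1, 79.1 and 31.9 CPM in the 3 day3C mice and 311, 431 and 378 CPM in the 3 day3CL mice, a log2 difference of 2.56 ± 0.23 (adjusted p = 2.4e-22) with no overlap. Acaca, the first committed enzyme of fatty acid synthesis, had 552, 542 and 447 CPM against 706, 1049 and 858 CPM (log2 0.79, adjusted p = 1.39e-05). Acly (log2 1.02) and Acss2 (log2 0.80), which supply acetyl-CoA, were also higher, so that 4 of 12 lipogenic genes were higher and 0 lower, with a median of 0.55. That is no independent evidence, because the study had read this pattern on adipocyte nuclei, white and beige together, from Acaca, Acacb, Acly, Acss2, Fasn, Scd1 and Elovl6. Acss2 shares 8 of its 16 peaks with Gss. On the oxidative side, Acadl had 179, 169 and 95.7 CPM in day3C and 83.8, 41.2 and 92.3 CPM in day3CL (log2 -1.41, adjusted p = 5.94e-04), and it was the only member of 20 called. Of the thermogenic genes Ppargc1a (log2 -0.92), Ppargc1b (-0.64) and Gk, glycerol kinase (-1.22), were lower, with a median of -0.44, while Ucp1 had a log2 difference of -1.59 and an adjusted p of 0.0581. Leptin (log2 1.09), Cmklr1 (0.83), Zbtb16 (0.75) and Rora (0.47) were higher, and Adcy3 (-0.78) and Lrp3 (-1.83) lower.

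Among the largest differences at day 3, Tmem179 (log2 2.78), Car3 (2.01), Apol6, Arpc1b, Bcl2l10, Myl3, Cyp2e1, Fam83a and Rgs2 were higher, and Abi3 (-1.82), Eif2ak4, Fhdc1, Serpina1b, Gngt2, Zfp652, Pgpep1 and Plod1 lower. Myl3 shares 3 of 5 peaks with Pth1r. Sums of several marker sets also separated the groups of day 3, while those of B cell, dendritic cell, progenitor and skeletal muscle markers and Ptprc overlapped. The general adipocyte set summed to 1712, 1706 and 1659 CPM in day3C and 1939, 1825 and 1947 CPM in day3CL, the beige set to 1207, 1288 and 1202 CPM against 1185, 952 and 1144 CPM, and the T cell set to 22.3, 22.6 and 21.3 CPM against 83.8, 33.7 and 27.7 CPM. Smooth muscle markers summed to 134, 169 and 106 CPM in day3C and 227, 240 and 212 CPM in day3CL, macrophage markers to 160, 102 and 170 CPM against 180, 236 and 249 CPM, and endothelial markers to 146, 203 and 181 CPM against 95.7, 112 and 102 CPM. Their part in the differences was not tested. With the mouse number as a block, Gk, Rgs2, Serpina1b, Gngt2 and Plod1 did not pass (adjusted p = 0.0502 to 0.300). Scd1, Car3 and Zfp652 were the 3 of 20 named genes that kept the call whichever mouse was left out. Without day3CL mouse 2 the log2 differences of Acadl, Gk, Serpina1b, Plod1 and Gngt2 were -0.89, -0.67, -0.66, -0.24 and -2.57, and without day3C mouse 1 those of Serpina1b, Gngt2, Tmem179 and Myl3 were -0.63, -0.34, 1.77 and 2.60. The number of genes called fell from 93 to 13 without day3C mouse 1, 16 without day3CL mouse 2, 57 without day3CL mouse 3 and 59 without day3C mouse 2. Without the 3 lymphocyte-poor mice it was 4 of 4306, with Scd1 (log2 2.63) and Car3 (1.84) among them, and no other lipogenic gene (11 tested, median 0.51) and no thermogenic gene (13 tested, median -0.34) passed with these fewer mice, Acadl being at -0.59 (adjusted p = 0.795). Ppargc1b (-0.34), Zbtb16 (0.49), Rora (0.63), Cmklr1 (0.98), Adcy3 (-0.65) and leptin (Lep, 1.22) did not pass there either (adjusted p = 0.203 to 0.700).

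At day 7 Acaca differed in the opposite direction to day 3. Of the same genes, 26 (0.354%) were higher and 16 (0.218%) lower in day7CL. That split was 16 and 16 with the mouse number as a block, 12 and 13 without day7C mouse 2 and 2 and 4 without day7CL mouse 1. It was 47 and 15 without day7CL mouse 3 and 18 and 4 without day7C mouse 1. Car3 had 59.4, 61.6 and 72.5 CPM in day7C and 248, 200.5 and 175 CPM in day7CL (log2 1.77, adjusted p = 5.12e-13). Acaca had 882, 821 and 743 CPM in day7C and 563, 440 and 493 CPM in day7CL (log2 -0.65, adjusted p = 2.93e-04), and it was the only lipogenic gene called. Scd1 had 291, 174 and 199 CPM in day7C and 203, 71.2 and 262 CPM in day7CL, which overlapped. Acot11 (log2 -0.62), the acyl-CoA synthetase Acsl5 (-0.75) and Esrrb (-1.03) were lower and leptin (0.70) higher with CL, and the first pair were the 2 of 20 genes of fatty acid oxidation that were called. Acsl5 shares 4 of 11 peaks with Zdhhc6. No thermogenic gene was called, and Ucp1 had a log2 difference of -0.49 (adjusted p = 0.678). Cyp2e1, Bcl2l10, Adamts5, Mb21d2, Bcorl1, Tbc1d2b, Tln2, Pid1 and Lyrm1 were the other largest increases (log2 0.72 to 1.13), and Fhdc1, Rhot1, Me3, Chn1, Sgms2, Ide, Man2a2 and Myom1 the other largest decreases (-1.07 to -0.79). Bcl2l10, Adamts5, Mb21d2, Tln2, Lyrm1 and Myom1 did not pass with the mouse number as a block (adjusted p = 0.0532 to 0.0759). B cell markers summed to 59.4, 87.2 and 77.7 CPM in day7C and 160, 149 and 93.6 CPM in day7CL, and smooth muscle markers to 150, 76.9 and 148 CPM against 176, 175 and 194 CPM. Dendritic cell markers summed to 110, 123 and 106 CPM against 128, 162 and 125 CPM, skeletal muscle markers to 90.5, 108 and 93.2 CPM against 75.5, 77.6 and 87.4 CPM, and the beige set to 1292, 1149 and 1199 CPM against 1066, 944 and 1136 CPM. Each of these sums separated the groups without overlap, and their part in the differences was not tested. The sums of general adipocyte, T cell, macrophage, progenitor and endothelial markers and the level of Ptprc overlapped between these groups. Without day7CL mouse 1 the log2 difference of Me3 was -1.58, and without day7C mouse 1 that of Chn1 was -0.56. Car3 alone of the 20 kept the call whichever mouse was left out, and the 42 genes called became 6 without day7CL mouse 1, 13 without day7CL mouse 2, 22 without day7C mouse 1 or mouse 3 and 25 without day7C mouse 2.

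The change of the CL minus cold difference between day 3 and day 7 was tested directly, a comparison added after the data were seen. It was higher at day 7 for 2 genes (0.0272%), Itprid1 and Gtf2ird1, and lower for 8 (0.109%). Scd1 (log2 -2.83, adjusted p = 3.67e-17), Acaca (-1.45, adjusted p = 4.5e-11) and Acly (-1.40, adjusted p = 2.16e-04) were among the 8, so 3 of 12 lipogenic genes changed, with a median of -0.92. That is no independent evidence, since the study had read the courses of lipogenic genes in both arms on adipocyte nuclei, white and beige together. Tmem179, Ptges, Rnf144b and Dixdc1 were also among the 8. Scd1 and Acaca kept the call whichever mouse was left out. The 10 calls became 4 without day3CL mouse 2, 5 without day3C mouse 1 and 6 without day3CL mouse 3 or day7CL mouse 2, and 3 without the 3 lymphocyte-poor mice, where Scd1 (-2.90) and Acaca (-1.31) passed and Acly (-0.99) did not.

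Beige nuclei of day 0 were few, and the comparisons with them rest on 3 libraries that both arms share. Between cold and day 0, 15 genes (0.204%) were higher and 12 (0.163%) lower. That split was 3 and 10 with DESeq2, 3 and 15 with at least 20 nuclei per library, 9 and 3 with no filter on low counts, and 6 and 8 without the 3 lymphocyte-poor mice. Car3 was the most marked, with 356, 248 and 335 CPM at day 0 and 39.8 to 137 CPM in the 9 cold mice (log2 -2.05 ± 0.29, adjusted p = 1.63e-08). Cavin1, a coat protein of caveolae, had 356, 311 and 476 CPM at day 0 and 99.5 to 210 CPM in cold (log2 -1.26, adjusted p = 0.00107), and Igf1 had 384, 311 and 476 CPM against 169 to 328 CPM (log2 -0.92). Tgm3, Ugt1a7c, Svep1, Pigl, Fbxo21, Smad6 and Zbtb16 were the other named genes that were lower (log2 -1.58 to -0.68), and all 22 peaks of Ugt1a7c are shared with other genes of its cluster. The genes higher in cold had few counts at day 0, as Slc2a9 with 1 count over the 3 libraries (ratio of summed CPM 14.5, exact interval 2.57 to 576, which covers counting error only and no spread between mice), Galnt17 with 1 (14.1, 2.50 to 560) and Coq9, of ubiquinone synthesis, with 3 (5.26, 1.77 to 25.7). Fam198b, 1810043G02Rik, Acbd6, Dlgap2, Pdss2, Aig1 and Gyg were the others. Coq9 shares 3 of 4 peaks with Ciapin1. Without day0RT mouse 3 the log2 differences of Ugt1a7c and Smad6 were -0.69 and -0.50, and without day0RT mouse 1 that of Svep1 was -0.58. Those of Slc2a9 and Galnt17 without day0RT mouse 3, and of Fam198b, 1810043G02Rik and Acbd6 without day0RT mouse 1, also moved by over 1.5 times, to higher values. Fam198b and Smad6 did not pass with the mouse number as a block (adjusted p = 0.052 for both). Zbtb16 and Car3 were the list members called, Zbtb16 losing the call without any 1 of 6 mice (-0.11 without day0RT mouse 3) and without the 3 lymphocyte-poor mice (adjusted p = 0.0581), and Ucp1 had a log2 difference of 0.41 (adjusted p = 0.846). Sums of T cell markers in beige nuclei had medians of 124 CPM at day 0, 25.9 CPM in cold and 33.7 CPM with CL, B cell markers 171, 87.2 and 93.7 CPM and endothelial markers 35.2, 146 and 112 CPM, and the day 0 mice had median depths of 1912.5, 977 and 2785 entries per beige nucleus. Their part in these differences was not tested.

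For CL against day 0, 2 genes (0.0272%) were higher and 5 (0.068%) lower, with 1 and 6 in edgeR with RLE size factors. Dlgap2 (log2 1.98) and Jmjd1c (1.78) were higher. Cavin1 had 142 to 218 CPM in the 7 CL mice (log2 -1.09, adjusted p = 0.0124), and Acsl1 had 569, 683 and 687 CPM at day 0 and 239 to 450 CPM with CL (log2 -0.90, adjusted p = 0.0124). Pigl and Cdc27 were also lower, Cdc27 not with the mouse number as a block (adjusted p = 0.0528). Both sets of calls leaned on single mice. Of the 27 calls for cold, 2 were left without day0RT mouse 1, 4 without day0RT mouse 3, 7 without day1C mouse 2, 11 without day3CL mouse 1, 12 without day7C mouse 3, 13 without day3C mouse 1 and 14 without day3C mouse 2 or mouse 3, and only Car3 of 20 named genes kept its call throughout. Of the 7 for CL, 0 were left without day0RT mouse 3, 2 without day0RT mouse 1, 3 without day1C mouse 1 or mouse 2 or day3C mouse 2 or mouse 3 and 4 without day3CL mouse 2, and there were 15 without day1CL mouse 3.

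Between day 7 and day 1, averaged over both treatments, 43 genes (0.585%) were higher and 11 (0.15%) lower. Lipogenesis held 3 of the increases among 12 tested, with a median of 0.34, and 1 of 11 with a median of 0.19 without the 3 lymphocyte-poor mice. That is no independent evidence either, since the study had read the course of lipogenic genes over days on adipocyte nuclei, white and beige together. The median depth of a beige nucleus was 1718 entries in day1C and 1870 in day1CL against 3140.5 in day7C and 3487 in day7CL, and its part was not tested, since thinning every nucleus to 1000 entries left 1306 of 7353 genes tested (0 called). Progenitor markers summed to 137, 134 and 199 CPM in day1C and 123 CPM in day1CL mouse 3, above the 90.5, 97.5 and 101 CPM of day7C and the 98.9, 97.0 and 99.9 CPM of day7CL. Skeletal muscle markers summed to 31.7, 57.4 and 59.7 CPM in day1C and 80.8 CPM in day1CL mouse 3, against 90.5, 108 and 93.2 CPM in day7C and 75.5, 77.6 and 87.4 CPM in day7CL. The part of both sets was not tested. Fasn, fatty acid synthase, had 95.2, 191 and 79.6 CPM in day1C and 80.8 CPM in day1CL mouse 3, against 223, 231 and 210 CPM in day7C and 144, 168 and 200 CPM in day7CL (log2 0.96, adjusted p = 0.00718). Scd1 (log2 0.98) and Acaca (0.48) were the others, and Zbtb16 (0.48) was higher too, though not without the 3 lymphocyte-poor mice. Tfr2, a transferrin receptor (log2 2.40), Oca2, Cldn1, Wipf3, Inpp4b, Ctr9, Eya2, Ripor2, Nt5e and Hcls1 had the largest increases (1.25 to 2.40), and Nek6, Sh3bp2, Kirrel, Trub2, Gm47283, Hoxa7, Gstt2, Tex14 and the lipid droplet protein Plin4 fell (-1.26 to -0.50). No thermogenic gene was called, and Ucp1 had a log2 difference of 0.15 (adjusted p = 0.912). The 54 calls became 3 without the 3 lymphocyte-poor mice, 3 without day1CL mouse 3 alone, the only CL library of day 1, which leaves the cold mice alone, 21 without day1C mouse 1, 22 without day7CL mouse 1 and 34 without day7C mouse 1, and without day1CL mouse 3 the log2 differences of Tfr2, of which it holds 1 count, Inpp4b, Ripor2 and Tex14 were 0.25, 1.00, 0.72 and -0.43. No named gene kept the call throughout, 33 genes were called with the mouse number as a block, where Wipf3, Eya2, Ripor2, Trub2, Gm47283, Hoxa7 and Plin4 did not pass (adjusted p = 0.051 to 0.097), and DESeq2 called 0 (806 genes had an unadjusted p under 0.05).

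White adipocyte nuclei of the same mice served to ask whether the CL minus cold difference was the same in both kinds of adipocyte. Of 14346 genes tested with the mouse as a block, the difference was more positive in beige for 116 (0.809%) and more negative for 86 (0.599%). That split was 113 and 113 in edgeR with RLE size factors and 102 and 125 without day1CL mouse 3. It was 3 and 0 with every nucleus thinned to 1000 entries (9359 genes tested). For Car3 the white nuclei had 339 to 555 CPM in cold (median 412) and 303 to 502 CPM in CL (median 441), and the difference between beige and white was 1.82 ± 0.17 on the log2 scale (adjusted p = 1.21e-21). Cyp2e1 in white nuclei had medians of 185 CPM in cold and 182 CPM in CL (difference 1.30, adjusted p = 3.49e-05). Scd1 (1.33), Apol6, Trp63, Tnxb, Plod2, Ankrd55, Grk2 and Tgm3 complete the 10 largest, of which Grk2 was -0.03 without day1CL mouse 3. After thinning only Car3 (1.75) of these 10 passed, while Scd1 was 1.12 and Tgm3 0.24.

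In the negative direction the thermogenic list was again the largest group, with 7 of 19 tested and a median of -0.54. The median of all genes was 0.02. The list was chosen with earlier results of these data known, so that share is no independent evidence either. Ucp1 in white nuclei had 1.76 to 10.3 CPM in cold (median 3.49) and 4.95 to 11.1 CPM in CL (median 7.18), the opposite order to beige, and the difference was -2.08 (adjusted p = 9.99e-04). Otop1 in beige nuclei had a median of 113 CPM in cold and 97.1 CPM in CL, and in white nuclei 19.5 CPM and 34.7 CPM (difference -1.09, adjusted p = 0.00273). Cidea (-0.97, adjusted p = 0.0017) had medians of 113 and 99.9 CPM in beige and 44.0 and 67.7 CPM in white nuclei, and Pank1 (-0.65), Kcnk3 (-0.62), Ppargc1b (-0.54) and Dio2 (-1.11) were the others. Of 21 genes of fatty acid oxidation 4 were more negative and 0 more positive (Acadl, Acot11, Hadha and Pdk4, median -0.38), and in the remaining lists Sdha, Gpi1, Elovl6, Nr4a1, Grk3 and Fabp3 (-1.50) were more negative and Adcy5, Grk2 and Scd1 more positive. Cib4, Dhrs9, Slc27a2, Mapre3, Abi3, Grk3, Gngt2 and Fhdc1 were the other largest negative differences (-1.58 to -1.11). After thinning no negative difference was called, that of Slc27a2 was 0.0039, and those of Ucp1, Cidea, Dio2, Dhrs9, Abi3 and Gngt2 were -1.09, -0.23, -0.75, -0.54, -0.48 and -0.17. Car3, Scd1, Apol6, Cyp2e1, Trp63, Plod2, Cib4, Fabp3, Mapre3, Abi3, Ucp1 and Pank1, 12 of 23 named genes, kept the call whichever mouse was left out, and without day7CL mouse 1 there were 126 calls in place of 202. Without the 3 lymphocyte-poor mice there were 38 (22 and 16), with Car3, Scd1, Apol6, Cyp2e1 and Acot11 among them and 0 of 19 thermogenic genes (median -0.49), and of Sdha, Gpi1, Elovl6, Nr4a1, Grk3, Fabp3, Adcy5 and Grk2 only Elovl6 passed. Ucp1 was then at -1.68 (adjusted p = 0.376), Tnxb at 0.13, Trp63 at 0.59, Plod2 at 0.75, Ankrd55 at 0.25, Grk2 at -0.43, Fabp3 at -0.79, Slc27a2 at -0.64, Dio2 at -0.58 and Cidea at -0.54. Without day1CL mouse 3 alone Tnxb was 0.70, Trp63 0.79, Plod2 0.76, Ankrd55 0.45, Grk2 -0.03, Dio2 -0.74 and Cidea -0.52.

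Peaks were tested the same way, and 4633 had enough counts. With CL 11 (0.237%) were higher and 6 (0.13%) lower, or 10 and 10 in edgeR with RLE size factors. The largest increases were a peak 209 bases from the start of Cavin2 (chr1:51288635-51290036, log2 1.07, adjusted p = 0.022) and one 29618 bases from the start of Mb (chr15:77079524-77081053, log2 1.04, adjusted p = 0.0332), followed by peaks near Hs1bp3, Bcl2l10 and Twist2. All 6 peaks lower with CL had a mean under 10 counts per library. Among the 5 with the smallest p was the Mroh5 peak, whose window is printed above (log2 -2.15, adjusted p = 0.0353, mean of 3.53 counts per library). It had 8.96 to 42.0 CPM in cold (median 20.1) and 0 to 8.83 CPM in CL (median 4.86). The lowest cold mouse (day3C mouse 2, 8.96 CPM) lay barely above the highest CL mouse (day3CL mouse 2, 8.83 CPM). A peak 19921 bases from the start of Adrb1 (chr19:56741898-56742343), which encodes the β1-adrenergic receptor, had 8.40 to 71.7 CPM in cold (median 32.0) and 0 to 38.1 CPM in CL (median 21.8; log2 -2.33, adjusted p = 0.0285), and the others lay near Prelid3b, Pfkfb3 and Nup54. None of the 10 kept the call throughout, and with the mouse number as a block the Mroh5 peak had an adjusted p of 0.052, the Adrb1 peak 0.0575 and the Twist2 peak 0.0652. Of the 17 calls 0 were left without day1CL mouse 3 (321 peaks tested) or without the 3 lymphocyte-poor mice (573 tested), 4 without day1C mouse 2, 5 without day3CL mouse 3, 8 without day3CL mouse 2 or day3C mouse 1, 9 without day1C mouse 1 or day7CL mouse 1 and 10 without day3C mouse 2 or day7C mouse 3. Between day 7 and day 1, 1 peak (0.0216%) was higher and 0 (0%) lower (edgeR, 314 peaks had an unadjusted p under 0.05, and DESeq2 called 0), and it lies near Fam151a (chr4:106763982-106764827, log2 3.97, adjusted p = 1.67e-04). Without day1CL mouse 3 or day0RT mouse 2 that peak was not tested and 0 peaks were called.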

How the data were processed

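Per the labels, the authors aligned snATAC-seq reads of 4 pooled lanes with Bowtie2 to mm10, used SAMtools and Signac, and called peaks with MACS2. They deposited counts as a matrix of 189598 peaks by 32552 nuclei, in which every entry is 0 or 1, with the mouse, group and cluster of each nucleus. The GEO samples are the 4 lanes and carry no group, so mice and groups were read from the deposited annotation. Doublets had been removed by the authors, and reads were not aligned again. Opening is therefore flattened at peaks that are open in most nuclei.

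Counts were summed over the beige nuclei of a mouse (at least 10 nuclei) and over the peaks of a gene (body and 2000 bases upstream, GENCODE protein-coding genes on GRCm38), and 17196 of 21951 genes had a peak. A peak within several genes was counted for each (3.43% of peaks). Groups were compared with edgeR 4.0.16 (quasi-likelihood, TMM, filterByExpr with a minimum count of 10) under R 4.3.3. Tests were two-sided and p-values were adjusted by the Benjamini-Hochberg method over all genes or peaks tested, with all 7 groups in 1 fit. DESeq2 1.42.0 was an alternative, next to RLE size factors, no filter, promoter peaks only, at least 20 nuclei, only the 2 groups in the fit, nuclei thinned to 1000 entries, the replicate number as a block, and each mouse left out. Shares were compared by exact permutation with scipy 1.17.1 (Python 3.11.15, numpy 2.4.6, pandas 2.3.3). Wilson intervals, exact intervals of ratios and floors of 3 counts cover counting error only. The steps were tested on simulated data.

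Samples sharing a replicate number were checked for pairing. Over 45 pairs the correlation of deviations from the group means ranged from -0.034 to 0.028, and 0 exceeded 0.1. Barcodes were nevertheless shared only between mice of the same number, and the study speaks of independent batches without tying them to numbers, so whether the numbers mark batches is not settled, and the fit with the number as a block is given where it changes a call that the text describes.

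Named are the 4 markers, for clusters the 15 genes with the largest ratio over every other cluster and the 10 over white (at least 50 CPM), for each test the 10 genes or 5 peaks that changed most upward and downward past an adjusted p of 0.05 with a mean of at least 10 counts (for the peaks lower with CL, where none had that mean, the 5 with the smallest p), the called and leading members of 12 lists, and the 6 leading peaks. The markers and lists were chosen with earlier results of these data known. The core AAGGTCA, the test of day 7 minus day 3 and the fits without shared nuclei and without the lymphocyte-poor mice were added after the data were seen. The result of 1 gene that the rule would name is not reported here.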

Additional observations from a re-analysis of the deposited data

Results flagged for a closer look

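The CL minus cold difference differed between beige and white adipocyte nuclei of the same mice, by an interaction test with the mouse as a block, for 202 genes. On the log2 scale the difference was more positive in beige nuclei for Car3 (1.82), Scd1 (1.33), Apol6 (1.32), Cyp2e1 (1.30), Trp63 (1.20), Tnxb (1.18), Plod2 (1.14), Ankrd55 (1.13), Grk2 (1.11) and Tgm3 (1.06). It was more negative in beige nuclei for Cib4 (-1.58), Fabp3 (-1.50), Dhrs9 (-1.31), Slc27a2 (-1.29), Mapre3 (-1.25), Abi3 (-1.17), Grk3 (-1.15), Gngt2 (-1.13), Dio2 (-1.11) and Fhdc1 (-1.11). Abi3 and Gngt2 share 5 peaks and are not separate observations. Without the 3 lymphocyte-poor mice 38 genes were called, and the differences of Tnxb, Trp63, Plod2, Ankrd55, Grk2, Fabp3, Slc27a2 and Dio2 were 0.13, 0.59, 0.75, 0.25, -0.43, -0.79, -0.64 and -0.58. With every nucleus thinned to 1000 entries 3 genes were called, all more positive in beige (Car3 1.75). Tgm3, Slc27a2, Dhrs9, Abi3 and Gngt2 were then 0.24, 0.0039, -0.54, -0.48 and -0.17.

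The CL minus cold difference within beige nuclei differed between day 7 and day 3 for 10 genes, by a test of the difference itself. It was more positive at day 7 for Itprid1 (log2 1.93) and Gtf2ird1 (1.05), and more negative, among others, for Tmem179 (-3.16, or -2.05 without day7C mouse 1), Scd1 (-2.83), Ptges (-1.59), Acaca (-1.45), Acly (-1.40), Rnf144b (-1.18) and Dixdc1 (-1.13).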

How the results depend on the processing

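The number of calls at an adjusted p under 0.05 changed with the tool, the peaks counted and the depth. In the order CL against cold (mean of days), day 3, day 7, cold against day 0, CL against day 0, day 7 against day 1, day 7 minus day 3 and beige minus white, edgeR called 203, 93, 42, 27, 7, 54, 10 and 202 genes. DESeq2 called 60, 17, 2, 13, 6, 0, 2 and 85, but gave no adjusted p for 4419 of 7353 genes of the first comparison. Promoter peaks only gave 10, 9, 2, 0, 0, 0, 2 and 12, and nuclei thinned to 1000 entries 12, 4, 4, 2, 0, 0, 3 and 3, of 1306 genes tested (9359 for beige minus white). Libraries of at least 20 nuclei gave 59 at day 3. No filter on low counts gave 24 at day 7, 12 for cold and 1 for CL against day 0, and 5 peaks for CL against cold in place of 17, where DESeq2 gave 1 and thinning 0. For peaks of day 7 against day 1 both gave 0 in place of 1. Without the nuclei shared between mice, chosen after seeing the data, the counts of genes were 221, 102, 39, 24, 7, 50, 11 and 218. Without the 3 lymphocyte-poor mice, also chosen after seeing the data, they were 32, 4, 35, 14, 8, 3, 3 and 38, with 0 and 0 peaks, and Ucp1-positive nuclei differed by -3.34 points.

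Leaving out 1 mouse moved these counts to 136 to 245, 13 to 115, 6 to 62, 2 to 39, 0 to 15, 3 to 62, 4 to 15 and 126 to 227 genes, and to 0 to 22 and 0 to 2 peaks. The lone day1CL library was assumed to vary like the other groups, and without it CL against cold is the mean of days 3 and 7. The beige share of adipocyte nuclei moved to 6.35 to 8.80 points (treated against day 0), -2.83 to 0.26 (CL against cold) and 10.9 to 14.5 (day 7 against day 1), and Ucp1-positive nuclei to -3.72 to -2.22 points. As a share of all nuclei the CL minus cold difference was 0.42 points and day 7 minus day 1 was 2.76 points.

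With the replicate number as a block, which the correlations between mice did not show as a pairing but which may mark batches, 33 genes were called for day 7 against day 1 in place of 54, and the other counts were 187, 78, 32, 22, 7 and 12 genes and 15 and 1 peaks. Of the named genes and peaks 24 lost their call, with adjusted p from 0.0502 to 0.300, and none changed direction.

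Apart from Grk2 (1.11) and Slc27a2 (-1.29) for beige minus white, the gene differences that changed sign had not been called. With promoter peaks only, Prdm16 was 0.10 for CL against cold, -0.031 for day 7 against day 1, 0.19 for day 7 minus day 3 and 0.26 for beige minus white, and Pank1 was 0.14 at day 7 and -0.15 for cold against day 0. Cidea at day 3 was -0.015 with DESeq2, -0.011 with only the 2 groups and -0.025 without shared nuclei. Without the filter Prdm16 was 0.047 for cold and Pank1 0.015 for CL against day 0. After thinning, Pank1 was -0.11 for day 7 against day 1, and Slc27a2 0.0039 and Prdm16 0.048 for beige minus white, where at least 20 nuclei gave Prdm16 0.0004. Leaving out 1 mouse gave Prdm16 -0.14 to 0.12 and Cidea -0.12 to 0.14 at day 3, Prdm16 -0.17 to 0.40 and Cidea -0.15 to 0.51 for cold against day 0, Pank1 -0.24 to 0.071 and Prdm16 -0.31 to 0.26 for CL against day 0, Ucp1 -0.047 to 0.35, Pank1 -0.080 to 0.21 and Cidea -0.49 to 0.22 for day 7 against day 1, and Prdm16 -0.049 to 0.048 and Grk2 -0.033 to 1.49 for beige minus white. Without the 3 lymphocyte-poor mice Prdm16 was 0.028 and Cidea -0.17 at day 3, Pank1 -0.074 and Cidea -0.48 for day 7 against day 1, and Grk2 -0.43 and Prdm16 0.040 for beige minus white. The cause of these changes was not tested.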
